A study of Mus musculus with 18 samples.

Results

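The experiment described here is the addition of TNFa to macrophages kept with IL-4 and IL-13. Its members are the 12 libraries of 2 groups, 6 labelled IL4_IL13 and 6 labelled IL4_IL13_TNFa, out of 18 RNA sequencing libraries in the series, chosen by their labels and not by any measured value. Bone marrow of male C57BL/6 mice, whose age is not given in the sources used here, was grown into macrophages over 7 days with human M-CSF at 50 ng/ml, the growth factor of the macrophage lineage. All groups were then kept for 24 h with M-CSF at 10 ng/ml. The IL4_IL13 cells also received mouse IL-4 and IL-13 at 10 ng/ml each, and the IL4_IL13_TNFa cells received the same cytokines plus mouse TNFa at 10 ng/ml. The 6 Control libraries, from cells kept in M-CSF alone, entered the same model and are given only as levels beside the others. Whether the 6 libraries of a group stand for different animals or cultures is not stated in the labels. The p-values hence reflect no more than the scatter among libraries, part or all of which may be technical.

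IL-4 and IL-13 are the cytokines of type 2 immunity. They bind receptors that share the IL-4 receptor alpha chain and activate STAT6, and in macrophages they raise a set of genes known as alternative activation genes, such as those for arginase 1, the mannose receptor and the secreted protein Fizz1. TNFa is an inflammatory cytokine that binds the receptors TNFR1 and TNFR2. The receptor complexes activate the IkB kinases, which leads to the loss of the IkB proteins and lets NF-kB dimers enter the nucleus, where they raise inflammatory genes together with inhibitors of their own pathway.

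Each library held between 14793404 and 20056125 counts in IL4_IL13 and between 15645117 and 17808553 in IL4_IL13_TNFa. Levels are given in CPM, counts scaled by TMM to a common library size, as mean ± SD of 6 libraries or as the lowest, median and highest library. CPM values are not divided by transcript length, so they compare 1 gene between libraries and not different genes. Fold changes are of IL4_IL13_TNFa over IL4_IL13 on the log2 scale, with an approximate standard error after the ± sign. Of 10 macrophage marker genes 10 were detected, and their summed level ranged from 8741 to 10663 CPM in IL4_IL13 and from 9170.2 to 9998.5 CPM with TNFa. The sum hides changes of its members, of which 6 were called lower (2 by more than 2-fold, down to -4.43 for Fcgr1), 2 higher and 2 not called. Markers of T and NK cells, B cells, mast cells and erythroid cells summed to at most 3.29 CPM in every library of both groups, and 6 of 7 erythroid markers were at 0 throughout. Eosinophil markers summed to between 28.1 and 39.2 CPM in IL4_IL13 and between 57.8 and 65.1 CPM with TNFa, with 3 of 5 below 1 CPM and Epx at 0. Megakaryocyte markers overlapped (144 to 159 and 136 to 211 CPM, 3 of 6 below 1 CPM), and endothelial markers were lower with TNFa in all 6 replicate numbers (251 to 435 and 205 to 329 CPM, 3 of 7 below 1 CPM). The part of these markers in the results below was not tested. Of 14 stromal cell markers 11 were tested and none passed the threshold in either direction (edgeR). With the replicate number as a block, Col1a1, Col3a1, Col6a3 and Cxcl12 passed it, each lower with TNFa (edgeR adjusted p = 0.0333, 0.0102, 0.00306 and 0.0463). The fit of the 12 libraries alone with the block was chosen after seeing the data. It also called Sparc, Col5a2 and Col1a2 lower (edgeR adjusted p = 3.31e-05, 0.000412 and 0.00328). The summed stromal level ranged from 82.1 to 729.8 CPM in IL4_IL13 and from 88.4 to 494.3 CPM with TNFa, an overlap over nearly the whole range (exact two-sided permutation test, p = 0.491). Within replicate numbers it was lower with TNFa in 5 of 6 (exact sign-flip permutation test, p = 0.0625), and under library totals alone in 6 of 6 (p = 0.0312 by the same exact test). In bulk RNA, fewer cells of a type and less RNA per cell cannot be told apart.

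TNFa changed most of the transcriptome. Of 13177 genes tested, 3999 (30.3%) were higher and 3857 (29.3%) were lower at an adjusted p of at most 0.05 in the quasi-likelihood test of edgeR, adjusted by Benjamini and Hochberg's method. A stricter test of a change above 2-fold called 612 genes higher (4.64%) and 874 lower (6.63%). These 4 shares are the background against which the counts of members of each gene list are read below. In 3074 of the 13177 genes every TNFa library lay above every IL4_IL13 library, and in 2840 every TNFa library lay below. A lack of overlap between the groups was hence common and does not set a gene below apart. The higher genes reached larger folds: 61 called genes rose by a fitted fold of at least 32 and 19 fell by as much, while at a fold of at least 4 the order was the other way, with 366 higher and 522 lower. Genes called higher by more than 2-fold took up 4.48% ± 0.38 of all counts in IL4_IL13 and 14.9% ± 0.18 with TNFa (SD, n = 6). Genes called lower by more than 2-fold fell from 6.05% ± 0.32 to 1.38% ± 0.04 of counts. The first principal component of the 12 libraries held 79.7% of the variance and put the groups apart, with scores of -62.0 to -53.1 in IL4_IL13 and 53.6 to 60.1 with TNFa. The median log2 fold change over all genes tested was 0.00. With library totals alone as the scaling this median moved by -0.20, and 2313 genes were called higher and 6089 lower, so that 27.5% of calls were higher in place of 50.9%. Genes and lists below whose direction or call depended on that scaling are given with their value under it.

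**Figure D1:**
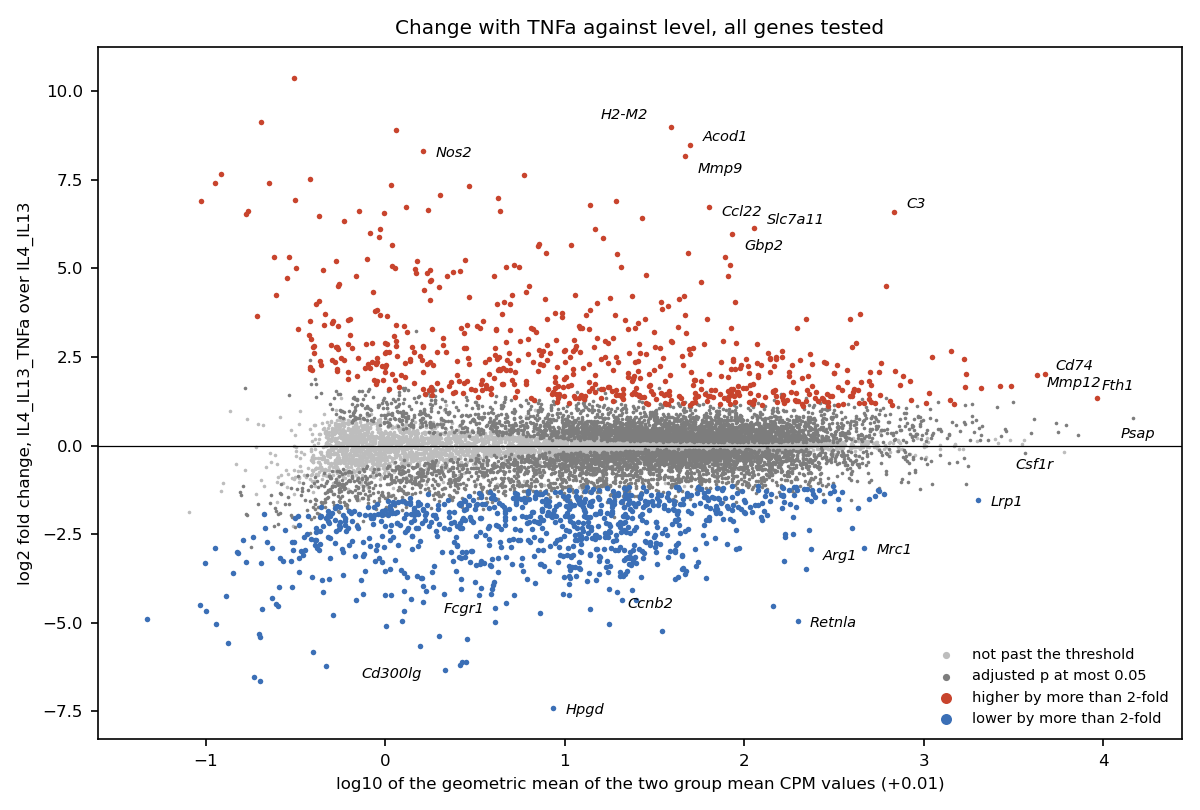
Log2 fold change with TNFa (y axis) against the log10 of the geometric mean CPM of both groups (x axis) for each gene tested. Red points are the 612 genes called higher by more than 2-fold and blue points the 874 called lower by more than 2-fold. Dark grey points passed only the test against no change, and light grey points did not pass it. Acod1 and Mmp9 lie among the largest rises at middle levels, and Fth1, Cd74 and Mmp12 rose at the highest levels.

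Several of the genes that rose most had few or no counts with IL-4 and IL-13 alone. Acod1, whose enzyme makes itaconate from a tricarboxylic acid cycle intermediate, ranged from 0.237 to 11.1 CPM (median 0.939) in IL4_IL13 and from 805 to 1180.4 CPM (median 938) with TNFa. No library of either group overlapped the other, and Acod1 rose by 8.47 ± 0.67 on the log2 scale (edgeR adjusted p = 3.22e-09). Its level in IL4_IL13 replicate 1 was 11.1 CPM, above the other 5 libraries of that group, and the rise was 10.19 when it was left out. Nos2, which makes nitric oxide in activated macrophages, had 9 counts over the 6 IL4_IL13 libraries and 2622 with TNFa, a log2 fold change of 8.31 ± 0.51 (9.07 without IL4_IL13 replicate 1). The gelatinase gene Mmp9 went from 2.69 ± 2.63 to 807 ± 164 CPM (8.17 ± 0.66 on the log2 scale). Macc1 had 0 counts in IL4_IL13 and 869 with TNFa, which is at least 338.5-fold higher when 3 counts over the IL4_IL13 group are taken as the floor. In every TNFa library Macc1 lay between 8.32 and 11.7 CPM.

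H2-M2, a nonclassical MHC class I gene at chr17:37480851-37483552 (GRCm38), ranged from 0.119 to 7.26 CPM (median 0.581) in IL4_IL13 and from 808 to 1059.9 CPM (median 894) with TNFa. Its log2 fold change was 8.98 ± 0.68, and 10.69 without IL4_IL13 replicate 1, where it stood at 7.26 CPM. The other genes among the 10 largest rises were Artn, which encodes the neurotrophic factor artemin (5 counts in IL4_IL13 and 2343 with TNFa; 8.90 ± 0.44, and 10.40 without IL4_IL13 replicate 1), Lad1 (7.65 ± 0.34, and 8.89 without that library), Rtn4rl2 (7.35 ± 0.26), the BCL2 relative Bcl2a1a (7.31 ± 0.25) and Tnfsf4, the gene of the T cell costimulatory ligand OX40L (7.06 ± 0.35). Bcl2a1a and its relative Bcl2a1d, which rose by 5.05 ± 0.12, are nearly identical in sequence, and the division of reads between them is uncertain. The same holds for H2-M2 to the extent that it shares sequence with other MHC class I genes.

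In CPM gained, a measure that favours long and abundant transcripts, the leading genes were Fth1, Psap, Cd74, C3, Mmp12, Itgax, Prkcd and Prdx1. Ferritin heavy chain, Fth1, rose from 5802 ± 351 to 14683 ± 629.8 CPM. Complement component C3 ranged from 48.1 to 96.7 CPM (median 67.5) in IL4_IL13 and from 5519.5 to 7494 CPM (median 6709) with TNFa, so the lowest TNFa library lay far above the highest IL4_IL13 library, at a log2 fold change of 6.59 ± 0.19. Cd74, the invariant chain of MHC class II, rose from 2332 ± 820.4 to 9485 ± 893 CPM, and Mmp12, whose product is an elastase, from 2123 ± 202 to 8492 ± 463 CPM although IL-4 and IL-13 alone already held it well above its Control level of 50.9 CPM. Itgax, the gene of the integrin CD11c, had levels in the same order of 9.95 CPM in Control, 1705 in IL4_IL13 and 5508 with TNFa.

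The largest falls were taken among called genes that reached 5 CPM in IL4_IL13. Hpgd, which inactivates prostaglandins, ranged from 72.99 to 128 CPM (median 120.1) in IL4_IL13 and from 0.348 to 1.07 CPM (median 0.504) with TNFa (-7.39 ± 0.35, edgeR adjusted p = 2.58e-12). No libraries overlapped, although IL4_IL13 replicate 1 was low within its group at 72.99 CPM. The immune receptor genes Cd300lg and Cd300lf changed by -6.32 ± 0.28 and -5.65 ± 0.32 on the log2 scale. The organic anion transporter gene Slco2b1 fell by 6.18 ± 0.19, the sodium channel gene Scn3a fell by 6.11 ± 0.28 and the homeobox gene Msx3 fell by 6.10 ± 0.35. Ang and Rnase4, ribonuclease genes that overlap on chromosome 14 and cannot be separated with certainty here, fell by 5.45 ± 0.23 and 5.24 ± 0.19. Depdc1b fell by 5.38 ± 0.35. The immunoglobulin heavy chain gene Ighm fell by 5.08 ± 0.85 (-5.67 without IL4_IL13_TNFa replicate 6), a call that limma voom did not make (adjusted p = 0.0965). In CPM the largest losses were those of Lrp1, Ctsd, Mrc1, Retnla, Laptm5, C1qb, Ucp2 and C3ar1, with Lrp1, an endocytic receptor for many ligands, going from 3392 ± 517 to 1175 ± 93.2 CPM.

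**Figure D2:**
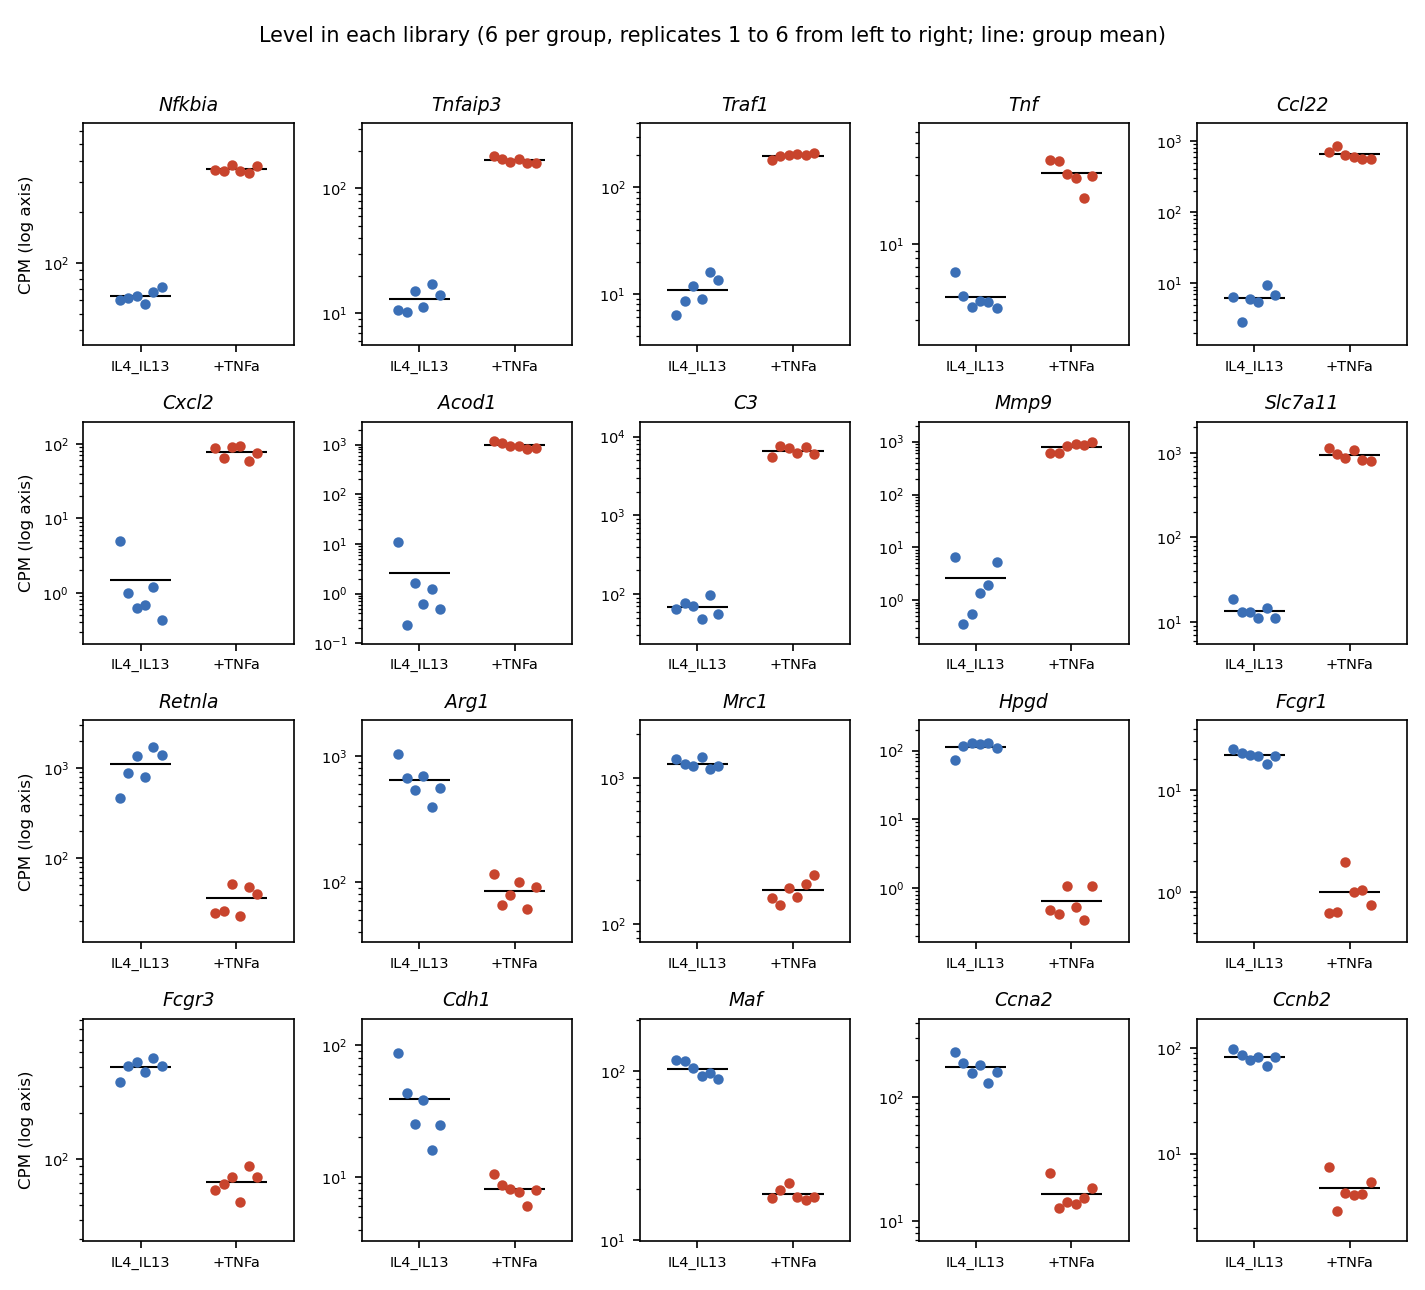
Level of 20 genes in each of the 12 libraries in CPM on a log axis, with IL4_IL13 in blue, IL4_IL13_TNFa in red, replicates 1 to 6 from left to right and the group mean as a line. In every panel the 6 libraries of one group lie outside the range of the other group, and IL4_IL13 replicate 1 stands above the rest of its group for Acod1, Cxcl2 and Tnf.

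The gene groups are given by their role, starting at the receptor. Of 30 tested genes for TNF receptors and their proximal signalling proteins, 14 were higher and 4 lower (background 30.3% and 29.3%; 11 and 11 under library totals alone), 6 of them higher by more than 2-fold (background 4.64%). Tnfrsf1a, the gene of TNFR1, fell slightly, from 185 ± 2.95 to 152 ± 5.23 CPM (log2 fold change -0.29 ± 0.04). Tnfrsf1b, the gene of TNFR2, rose from 698 ± 91.5 to 969 ± 67.2 CPM (0.47 ± 0.16), and this call was lost under library totals alone (0.27, edgeR adjusted p = 0.153). The larger rises were in genes that act in or restrain the receptor complex. Traf1, an adaptor that binds TNFR2 complexes, ranged from 6.25 to 15.99 CPM (median 10.3) in IL4_IL13 and from 182 to 210.2 CPM (median 200.1) with TNFa, a log2 fold change of 4.21 ± 0.16. Tnfaip3, which encodes the NF-kB inhibitor A20, ranged from 10.3 to 17.1 CPM (median 12.7) in IL4_IL13 and from 160.1 to 180.3 CPM (median 168) with TNFa (3.69 ± 0.13, edgeR adjusted p = 2.81e-14). For both genes the groups lay far apart. Casp8 and Otulin, a caspase and a deubiquitinase of the complex, fell by 0.41 ± 0.04 and 0.38 ± 0.07, and Tab2, a subunit of the kinase complex downstream, did not pass the threshold (-0.08 ± 0.05, 95% interval -0.19 to 0.02; -0.29 and called under library totals alone).

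Nearly all NF-kB genes tested rose. Of 17 subunits, inhibitors and kinases 15 were higher and none lower (13 higher and 1 lower under library totals alone), 7 by more than 2-fold, with a median log2 fold change of 0.97 against 0.00 over all genes. The p50 precursor gene Nfkb1 rose from 305 ± 12.9 to 706 ± 44.00 CPM (1.21 ± 0.05) and the p52 precursor gene Nfkb2 from 67.8 ± 11.9 to 318 ± 6.67 CPM (2.23 ± 0.14). Relb, the partner of p52, ranged from 11.4 to 27.5 CPM (median 23.6) in IL4_IL13 and from 149.8 to 167 CPM (median 162) with TNFa (2.86 ± 0.20). Rela and Rel, the genes of the activating subunits p65 and c-Rel, changed less, by 0.58 ± 0.06 and 0.48 ± 0.08. Among the inhibitors, Nfkbia, the gene of IkBa, ranged from 57.2 to 71.6 CPM (median 62.6) in IL4_IL13 and from 340.5 to 379 CPM (median 351) with TNFa, and no library of one group came near the other (2.49 ± 0.06, edgeR adjusted p = 1.26e-16). Nfkbie, the gene of IkBe, had the largest log2 fold change of the list, 4.04 ± 0.19, from a mean of 21.8 to 358 CPM. Ikbkg, the regulatory subunit of the IkB kinase, did not pass the threshold (0.15 ± 0.09, 95% interval -0.03 to 0.34). It passed in the fit of the 12 libraries alone (0.14, edgeR adjusted p = 0.0283) and without Control replicate 1 (edgeR adjusted p = 0.0073). Tnf itself rose, ranging from 3.61 to 6.39 CPM (median 4.02) in IL4_IL13 and from 20.9 to 38.1 CPM (median 30.03) with TNFa (2.81 ± 0.23), with the highest IL4_IL13 level in replicate 1.

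The promoters of several of these genes hold matches to the 10-base kB consensus, the sequence that NF-kB dimers bind. The 250 bases before the start of transcription are shown for 3 of them, on the strand of the gene and 5′ to 3′, from RefSeq on GRCm38.p6, with every base of a match on either strand in capitals. They were chosen because each gene rose by more than 2-fold and holds a match close to its start. Nfkbia lies on the minus strand (chr12:55492648-55492897) with a match that begins 29 bases before the start. Tnfaip3, also on the minus strand (chr10:19015411-19015660), has matches 125 and 12 bases before it. Nfkb2 lies on the plus strand (chr19:46304487-46304736, the first of its annotated starts with a match), where matches begin 39, 38 and 11 bases before the start and those at 39 and 38 share bases.
Nfkbia: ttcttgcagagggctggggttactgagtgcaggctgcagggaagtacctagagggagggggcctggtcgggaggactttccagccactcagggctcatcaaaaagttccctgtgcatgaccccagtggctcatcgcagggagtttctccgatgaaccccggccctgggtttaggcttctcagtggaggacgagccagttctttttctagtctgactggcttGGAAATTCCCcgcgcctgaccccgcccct
Tnfaip3: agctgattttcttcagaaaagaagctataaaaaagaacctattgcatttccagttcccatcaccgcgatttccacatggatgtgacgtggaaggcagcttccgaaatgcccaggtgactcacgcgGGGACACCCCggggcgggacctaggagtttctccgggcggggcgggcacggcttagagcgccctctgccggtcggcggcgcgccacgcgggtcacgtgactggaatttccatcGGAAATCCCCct
Nfkb2: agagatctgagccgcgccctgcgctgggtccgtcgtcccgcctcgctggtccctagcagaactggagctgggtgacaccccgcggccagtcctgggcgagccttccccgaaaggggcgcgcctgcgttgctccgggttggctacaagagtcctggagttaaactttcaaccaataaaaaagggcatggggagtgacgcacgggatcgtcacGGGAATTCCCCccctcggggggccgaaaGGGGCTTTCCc

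Over all genes with a RefSeq promoter in the table, 9759 of those tested, a kB match lay in the 300-base window (250 before and 50 after the start, both strands, any start of the gene) in 6.24%. Among genes higher by more than 2-fold it lay in 65 of 468, or 13.9% (95% Wilson interval 11.1 to 17.3%), and among genes lower by more than 2-fold in 43 of 650, or 6.62% (4.95 to 8.79%). Genes that did not pass the threshold held it in 5.36%. The NF-kB list held it in 6 of 13 genes and the MHC class I list in 8 of 15. Among the class I genes, H2-K1, H2-D1, H2-Q4, H2-Q6 and H2-Q7 hold the match within nearly the same sequence, so these promoters are not independent of each other. These shares describe letters in a window. They were not tested, and a match is not evidence of binding.

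**Figure D3:**
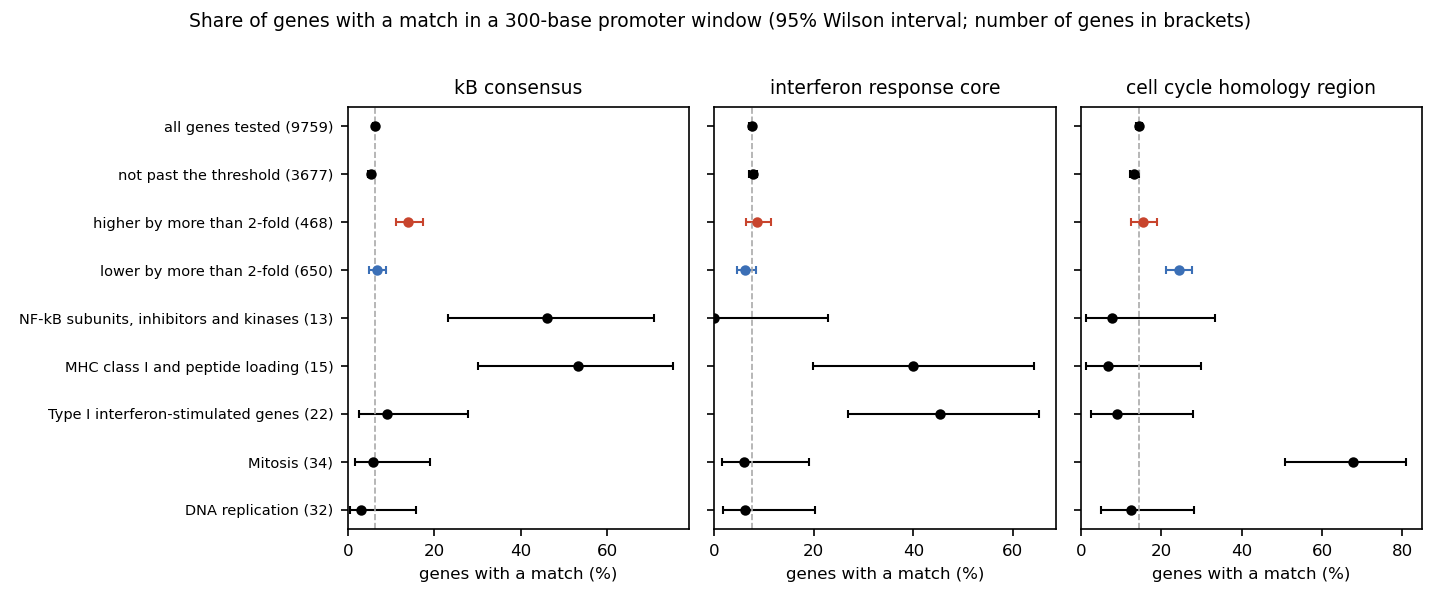
Share of genes with a match in the 300-base promoter window (x axis, percent; bars are 95% Wilson intervals) for 3 motifs and 9 sets of genes, with the number of genes in brackets and the share over all genes tested as a dashed line. Genes higher by more than 2-fold lie at 13.9% for the kB consensus against 6.24% over all genes, and the Mitosis list lies at 67.6% for the cell cycle homology region against 14.5%.

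Most chemokine genes that passed the threshold rose. Of 11 tested CC chemokine genes 5 were higher, all by more than 2-fold, and 2 lower (1 lower without IL4_IL13 replicate 1). Ccl22 and Ccl17, ligands of CCR4 that draw type 2 helper and regulatory T cells, are known targets of IL-4, and both rose with TNFa. Ccl22 ranged from 2.85 to 9.38 CPM (median 6.23) in IL4_IL13 and from 553 to 841 CPM (median 616) with TNFa (6.72 ± 0.22, edgeR adjusted p = 1.88e-14). Its Control level was 0.463 CPM. Ccl17 rose from 0.994 ± 0.424 to 51.3 ± 5.62 CPM (5.69 ± 0.20), with no overlap between groups. The monocyte chemokine gene Ccl7 was called lower (-1.18 ± 0.46), but its groups overlapped, and without IL4_IL13 replicate 1 the change was -0.68 and no longer passed (edgeR adjusted p = 0.157). Ccl6 was not called (0.34 ± 0.20), and passed with the replicate number as a block (edgeR adjusted p = 0.00504).

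Of 9 CXC and CX3C chemokine genes 7 were higher, 6 by more than 2-fold, and 1 lower, with the highest median of the 46 lists, 2.46. The neutrophil attractants Cxcl2 and Cxcl3 led. Cxcl2 ranged from 0.431 to 5.0 CPM (median 0.844) in IL4_IL13 and from 58.1 to 94.7 CPM (median 82.3) with TNFa (5.66 ± 0.39, and 6.66 without IL4_IL13 replicate 1, at 5.0 CPM). Cxcl3 ranged from 0.0539 to 6.88 CPM (median 0.0639) in IL4_IL13 and from 97.5 to 227 CPM (median 141) with TNFa (6.79 ± 0.67, and 10.39 without that library, at 6.88 CPM). For both, the highest IL4_IL13 library lay well below the lowest TNFa library. Cxcl14 fell from 66.7 ± 9.42 to 27.4 ± 4.19 CPM (-1.28 ± 0.16), and Cxcl12, also a stromal product, was not called (-0.61 ± 0.56; edgeR adjusted p = 0.0463 with the block).

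Of 17 cytokine genes tested 4 were higher and 8 lower, 2 and 5 of them by more than 2-fold. Il1rn, the IL-1 receptor antagonist, rose from 7.21 ± 1.45 to 70.8 ± 14.8 CPM (3.29 ± 0.22). Il16, a ligand of CD4, fell from 11.99 ± 1.46 to 0.821 ± 0.234 CPM (-3.85 ± 0.32), and Osm, oncostatin M, fell from 6.26 to 3.33 CPM (-0.91 ± 0.15). Tnfsf9, the 4-1BB ligand, was not called (-0.53 ± 0.29; -0.74 and called under library totals alone). The count of higher cytokine genes was 2 without IL4_IL13_TNFa replicate 6 and under library totals alone.

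The target genes of IL-4 and IL-13 did not move together. Of 32 tested, 17 were lower and 12 higher with TNFa, 9 and 8 of them by more than 2-fold (background 6.63% and 4.64%), and 3 were not called. Retnla, which encodes Fizz1, ranged from 461 to 1704 CPM (median 1121) in IL4_IL13 and from 22.9 to 51.6 CPM (median 33.1) with TNFa (-4.95 ± 0.33, edgeR adjusted p = 2.60e-10). The groups did not overlap, yet the TNFa level stayed above the Control mean of 0.0644 CPM. Ear2, an eosinophil-associated ribonuclease with close relatives among which reads may be split, fell from 68.6 ± 24.6 to 2.799 ± 0.7098 CPM (-4.61 ± 0.25). Arg1, arginase 1, ranged from 391 to 1036 CPM (median 607) in IL4_IL13 and from 60.8 to 116 CPM (median 84.7) with TNFa (-2.92 ± 0.23), against 0.4701 CPM in Control. Mrc1, the mannose receptor CD206, ranged from 1151 to 1387 CPM (median 1233) in IL4_IL13 and from 134 to 217 CPM (median 164) with TNFa (-2.89 ± 0.16), which put the TNFa mean of 169.5 CPM beside a Control mean of 222 CPM. Pparg, a nuclear receptor that takes part in alternative activation, went from 109 ± 15.9 to 40.1 ± 3.47 CPM (-1.44 ± 0.09), with a Control mean of 38.5 CPM.

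On the other side, Ccl22, Ccl17 and Mmp12 rose from IL4_IL13 means of 6.17, 0.994 and 2123 CPM, beside Control means of 0.463, 0.00966 and 50.9 CPM. Irf4, a transcription factor of alternative activation, was not called. Its mean was 185 ± 36.1 and 178 ± 15.6 CPM in IL4_IL13 and with TNFa, against 9.23 CPM in Control, with a 95% interval of the log2 fold change from -0.56 to 0.45. The list held genes on both sides of 0, with a median log2 fold change of -0.41. A comparison of IL4_IL13 with Control would share the IL4_IL13 libraries with the present one, so the order of the 3 groups is given as levels and not as a relation between changes.

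**Figure D4:**
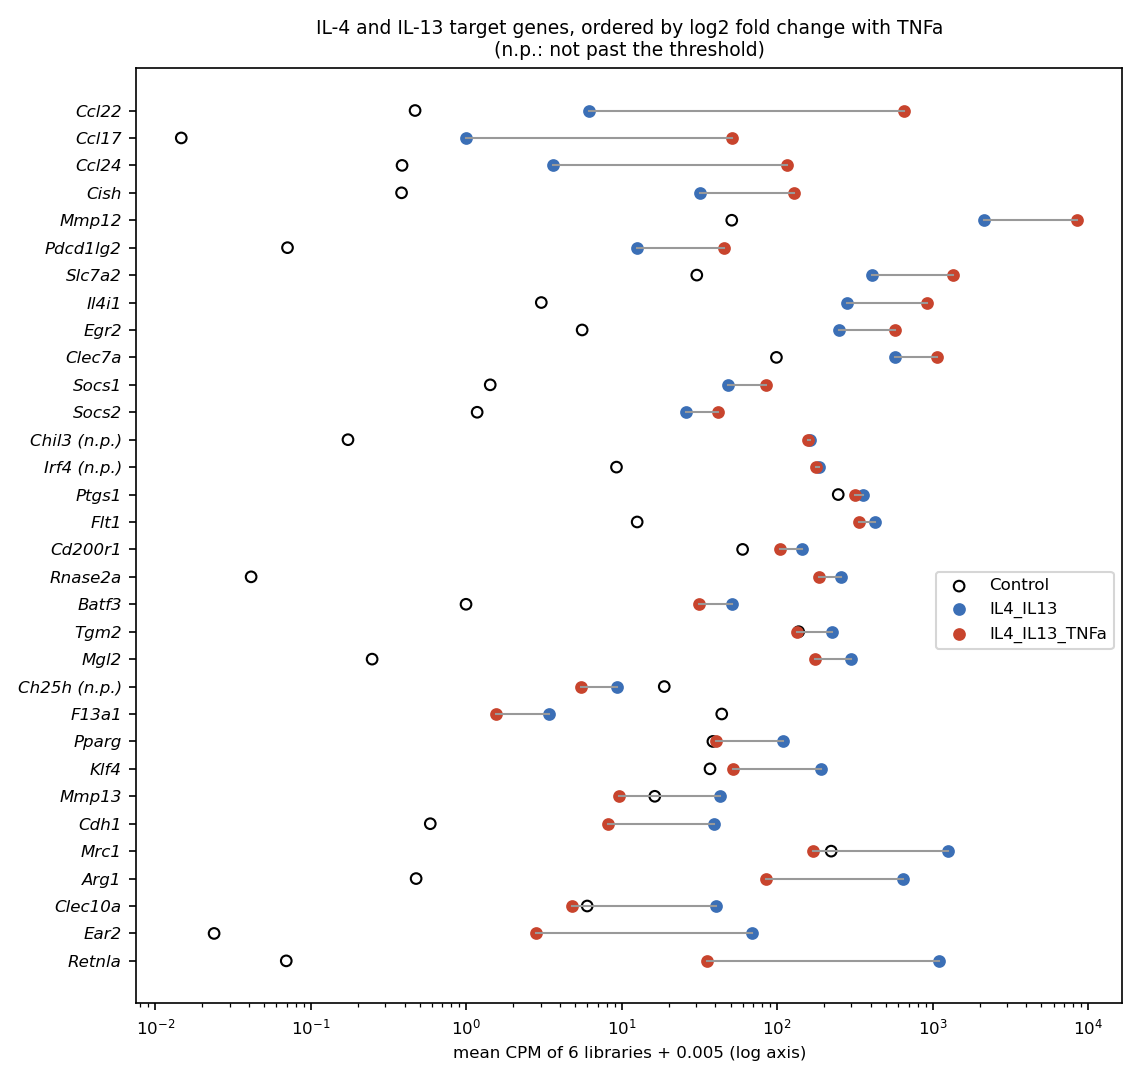
Mean CPM of 6 libraries (plus 0.005, log axis) in Control (open circles), IL4_IL13 (blue) and IL4_IL13_TNFa (red) for the 32 tested target genes of IL-4 and IL-13, ordered by the log2 fold change with TNFa. The red points of 12 genes at the top lie above the blue ones, those of 17 genes called lower lie below them, and Chil3, Irf4 and Ch25h (n.p.) did not pass the threshold.

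The receptor and signalling genes of these cytokines changed in part. Of 25 genes of the IL-4 receptor, JAK, STAT and SOCS list, 12 were higher and 3 lower (11 and 10 under library totals alone), 6 by more than 2-fold higher. Il13ra1, which pairs with the IL-4 receptor alpha chain to bind IL-13, rose from 3.91 ± 0.761 to 39.3 ± 2.98 CPM (3.32 ± 0.12), and Il4ra, that chain itself, rose from 57.3 ± 5.32 to 95.8 ± 2.44 CPM (0.74 ± 0.07). Stat6 was not called (291 ± 8.99 and 299 ± 9.73 CPM, 0.04 ± 0.03), and under library totals alone it was called lower (-0.17). Jak1 was not called either (0.12 ± 0.05). Socs3, an inhibitor of cytokine signalling, rose from 2.98 to 18.99 CPM (2.66 ± 0.16), while Socs6 and Socs5 fell by 0.48 ± 0.05 and 0.33 ± 0.05.

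Arginine is used both by arginase 1 and by nitric oxide synthase. Of 16 genes on arginine and polyamine use 6 were higher and 4 lower (background 30.3% and 29.3%). Under library totals alone 5 were higher and 5 lower. Arg1 fell and Nos2 rose, as given above, and Ass1, which rebuilds arginine from citrulline, ranged from 9.97 to 16.3 CPM (median 10.9) in IL4_IL13 and from 445 to 557 CPM (median 476) with TNFa, a log2 fold change of 5.31 ± 0.25. No Ass1 library overlapped between groups. Gatm, which makes the creatine precursor from arginine, fell from 563 ± 87.3 to 197 ± 27.04 CPM (-1.51 ± 0.16), and Azin1, the antizyme inhibitor, was not called (-0.07 ± 0.24).

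Most genes stimulated by type I interferon rose. Of 29 tested 25 were higher and none lower (21 under library totals alone), 7 by more than 2-fold, with a median log2 fold change of 1.09. Ifit1, an RNA-binding effector, rose from 1.68 ± 0.536 to 9.94 ± 4.71 CPM (2.54 ± 0.38) against a Control mean of 35.2 CPM, and Usp18, which removes ISG15 from proteins and limits interferon signalling, rose from 19.4 ± 3.05 to 77.3 ± 12.04 CPM (2.00 ± 0.18) against 14.9 CPM in Control. Ifi204 was not called (-0.10 ± 0.19). Of 16 interferon-inducible GTPases 8 were higher, 2 lower and 6 not called, with 6 of the 8 beyond 2-fold. Gbp2, a guanylate-binding protein that acts on intracellular pathogens, ranged from 6.902 to 19.95 CPM (median 9.24) in IL4_IL13 and from 633 to 716 CPM (median 686) with TNFa (5.98 ± 0.25), and no libraries overlapped. Gbp2b had 7 counts in IL4_IL13 and 650 with TNFa (6.62 ± 0.34, and 7.43 without the libraries numbered 1). Gbp9 fell by 1.15 ± 0.25 and Irgm2 was not called (0.02 ± 0.16). These GTPases have near-identical relatives among which reads may be split.

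Among 8 interferon regulatory factors 4 were higher, 4 not called and none lower (2 lower under library totals alone or with the block). Irf7 rose from 8.79 ± 3.42 to 26.6 ± 9.33 CPM (1.59 ± 0.28) and Irf5 from 472 ± 43.2 to 878 ± 45.1 CPM (0.89 ± 0.06). Irf1 rose by 0.61 ± 0.15, and Irf8, a factor of monocyte and dendritic cell development, was not called (0.14 ± 0.11).

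Nearly all MHC class I genes rose. Of 18 genes of MHC class I and peptide loading 17 were higher and none lower (15 under library totals alone), with a median of 0.75, and 3 exceeded 2-fold. H2-Q7 and H2-Q6, nonclassical heavy chains, rose from 1.16 ± 0.383 to 22.03 ± 4.31 CPM and from 1.22 ± 0.387 to 19.8 ± 5.05 CPM (4.24 ± 0.19 and 4.01 ± 0.21), with reads that may be shared between them. Canx, a chaperone of the heavy chains, was not called (0.15 ± 0.07; edgeR adjusted p = 0.0108 with the block). H2-K1, a classical heavy chain gene named here after its values were seen because its promoter holds matches to 2 motifs, rose from 782 ± 109.8 to 1832 ± 157 CPM (1.23 ± 0.11). Its promoter on the minus strand (chr17:34000348-34000597, RefSeq on GRCm38.p6) is shown with a kB match, which begins 111 bases before the start and overlaps a second one, and a match to GAANNGAAA, the core of the interferon-stimulated response element, 90 bases before it on the other strand, both in capitals.
H2-K1: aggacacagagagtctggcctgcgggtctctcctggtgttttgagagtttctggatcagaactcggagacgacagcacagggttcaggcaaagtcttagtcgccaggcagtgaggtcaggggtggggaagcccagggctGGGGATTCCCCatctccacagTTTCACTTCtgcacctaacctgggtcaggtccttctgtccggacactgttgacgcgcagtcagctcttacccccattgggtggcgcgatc

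GAANNGAAA lay in the 300-base window of 7.47% of all genes tested, in 6 of 15 MHC class I genes, in 10 of 22 genes stimulated by type I interferon and in 5 of 10 interferon-inducible GTPases. In genes higher by more than 2-fold its share was 8.55% (95% Wilson interval 6.34 to 11.4%) and in those lower by more than 2-fold 6.15% (4.55 to 8.27%). The interval of the first of these includes the share over all genes. In the 250 bases before the start alone, 4 of 22 genes stimulated by type I interferon held it. The counts in that window were 6 of 15 for MHC class I genes and 5 of 10 for the GTPases. Among the class I genes, H2-K1, H2-D1, H2-Q4, H2-Q6 and H2-Q7 hold the match within nearly the same sequence, so they are not independent of each other. The same holds for Igtp and Irgm2 among the GTPases.

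Proteasome genes, which supply peptides to class I molecules, were also higher. Of 6 immunoproteasome genes 6 were higher and 2 exceeded 2-fold: Psme2, an activator subunit, rose from 48.5 ± 2.63 to 123 ± 10.9 CPM (1.35 ± 0.07) and Psmb10, a catalytic subunit, from 99.02 ± 16.1 to 233 ± 15.4 CPM (1.24 ± 0.10). Of 31 constitutive proteasome genes 27 were higher and none lower, but by small steps (median 0.33, none above 2-fold), and under library totals alone 10 were called higher. Psmb5 rose from 51.8 to 96.6 CPM and Psma3 from 27.3 to 42.8 CPM, while Psma4 was not called (0.08 ± 0.07).

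MHC class II genes, which present peptides to CD4+ T cells, rose in part. Of 16 tested 8 were higher and 3 lower, and 6 of the 8 exceeded 2-fold. H2-Aa, an alpha chain of the class II molecules, ranged from 149 to 381 CPM (median 242) in IL4_IL13 and from 1073 to 1451 CPM (median 1360.0) with TNFa (2.34 ± 0.36). H2-Eb1, a beta chain, ranged from 90.1 to 229 CPM (median 138) in IL4_IL13 and from 846 to 1162 CPM (median 1080.2) with TNFa (2.78 ± 0.38). Neither gene's groups overlapped. Ciita, the transactivator of these genes, was higher in every library with TNFa (48.4 to 117 CPM and 132 to 178 CPM) but did not pass the threshold (0.87 ± 0.39, edgeR adjusted p = 0.0619, and 0.0246 with the block). It passed in the fit of the 12 libraries alone (0.86, edgeR adjusted p = 0.000481). The same was true without Control replicate 1, a library outside the contrast (edgeR adjusted p = 0.00133). Lgmn, a lysosomal protease that trims antigens, fell from 626 ± 71.7 to 181 ± 17.3 CPM (-1.79 ± 0.11).

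Of 22 genes of dendritic cell maturation and costimulation 14 were higher and 3 lower, 11 of the 14 by more than 2-fold. Ccl22 and Tnfsf4, described above, had the largest rises. Icosl, the ligand of ICOS, fell from 8.79 ± 1.79 to 2.43 ± 0.533 CPM (-1.86 ± 0.14), as did Cd83 (-0.84 ± 0.27), whose groups overlapped and whose call limma voom did not make (adjusted p = 0.0592). Id2 was not called (0.15 ± 0.14). Of 10 markers of dendritic cells themselves 4 were tested, of which 2 rose by more than 2-fold and 2 fell. Zbtb46, a transcription factor of classical dendritic cells, rose from 2.76 to 33.9 CPM (3.62 ± 0.18), and Ccr9, a chemokine receptor, rose by 2.71 ± 0.33 at low levels. The sum of the 10 ranged from 120.4 to 130.2 CPM in IL4_IL13 and from 94.1 to 99.6 CPM with TNFa, mostly from Tcf4, which fell from 121 to 60.9 CPM, and these 3 genes are named after their values were seen. Of the 10, 7 stayed below 1 CPM, Flt3, Xcr1 and Clec9a among them, and Klk1 was at 0. Their part in the results was not tested.

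Cell cycle genes fell together. All 42 DNA replication genes tested were lower, 13 by more than 2-fold (median on the log2 scale -1.36), and 40 of 41 mitosis genes were lower, each of the 40 by more than 2-fold (background 6.63%), with a median of -3.15. Summed over the 41 mitosis genes the level ranged from 3452 to 5904 CPM in IL4_IL13 and from 508.4 to 757.7 CPM with TNFa, against 2001 to 5955 CPM in Control. The 42 replication genes summed to between 2409 and 4434 CPM in IL4_IL13 and between 1024 and 1414 CPM with TNFa, against 949.4 to 4417 CPM in Control. For both sums the 2 cytokine groups did not overlap, while the Control libraries spread over a wide range. For the mitosis genes the median sums were 2939 CPM in Control, 4440 in IL4_IL13 and 560 with TNFa. For the replication genes they were 1373, 3286 and 1200 CPM in the same order, so the Control median lay within the TNFa range.

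Cenpf, a kinetochore protein, ranged from 88.6 to 152 CPM (median 112) in IL4_IL13 and from 3.699 to 9.24 CPM (median 4.93) with TNFa (-4.36 ± 0.24, edgeR adjusted p = 2.04e-11). Ccnb2, the mitotic cyclin B2, ranged from 67.2 to 98.04 CPM (median 81.7) in IL4_IL13 and from 2.85 to 7.53 CPM (median 4.19) with TNFa (-4.12 ± 0.21). Among the replication genes, Ccna2, the S phase cyclin A2, ranged from 130.5 to 231 CPM (median 171) in IL4_IL13 and from 12.8 to 24.3 CPM (median 14.8) with TNFa (-3.41 ± 0.28), and Tk1, thymidine kinase, fell from 78.8 ± 17.9 to 9.68 ± 2.58 CPM (-3.02 ± 0.36). No library of one group reached the other for any of the 4, which also held for 2840 of all 13177 genes tested in the lower direction. Pttg1, the gene of securin, was the exception among the mitosis genes (0.27 ± 0.12, not called). It was called higher from the 12 libraries alone (edgeR adjusted p = 0.0395) and without Control replicate 1 (0.0205). It was also called higher without IL4_IL13 replicate 6 (0.0312) or IL4_IL13_TNFa replicate 1 (0.0266).

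The short motif TTTGAA, the cell cycle homology region through which the DREAM complex and MYBL2 act on mitotic genes, lay in the 300-base promoter window of 14.5% of all genes tested and of 24.3% of genes lower by more than 2-fold (158 of 650, 95% Wilson interval 21.2 to 27.8%). It lay in 23 of 34 mitosis genes, or 67.6% (50.8 to 80.9%), and in 4 of 32 replication genes. In the 250 bases before the start alone, 11 of 34 mitosis genes held it. Promoters of 3 mitosis genes, chosen after their values were seen because a match lies within 30 bases of the start, are shown as above with the motif or its reverse complement in capitals. Cdc20, the activator of the anaphase-promoting complex, fell from 75.8 ± 10.9 to 6.17 ± 1.07 CPM (-3.62 ± 0.17) and lies on the minus strand (chr4:118437344-118437593) with a match 18 bases before the start. Prc1, which bundles spindle microtubules, fell from 162 ± 34.4 to 13.9 ± 3.67 CPM (-3.55 ± 0.26) and lies on the plus strand (chr7:80294226-80294475) with a match at 30 bases. Cdk1, the mitotic kinase, fell from 88.99 ± 17.03 to 12.9 ± 1.71 CPM (-2.79 ± 0.25) and lies on the minus strand (chr10:69352913-69353162) with matches at 71 and 15 bases.
Cdc20: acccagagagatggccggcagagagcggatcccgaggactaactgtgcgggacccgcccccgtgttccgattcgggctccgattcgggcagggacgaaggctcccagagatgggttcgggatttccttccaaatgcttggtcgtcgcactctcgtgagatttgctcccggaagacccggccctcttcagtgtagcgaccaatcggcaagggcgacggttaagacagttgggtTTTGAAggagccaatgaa
Prc1: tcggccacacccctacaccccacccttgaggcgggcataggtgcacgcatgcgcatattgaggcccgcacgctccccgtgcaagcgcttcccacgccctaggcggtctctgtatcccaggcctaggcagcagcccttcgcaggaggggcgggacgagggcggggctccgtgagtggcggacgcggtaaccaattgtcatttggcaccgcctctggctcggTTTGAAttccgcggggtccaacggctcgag
Cdk1: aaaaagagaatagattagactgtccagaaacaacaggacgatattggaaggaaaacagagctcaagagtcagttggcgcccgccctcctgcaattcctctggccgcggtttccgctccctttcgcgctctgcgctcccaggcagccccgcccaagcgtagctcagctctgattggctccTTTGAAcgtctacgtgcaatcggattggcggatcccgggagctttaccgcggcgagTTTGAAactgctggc

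Regulators of entry into the cycle did not share that pattern. Of 31 genes of G1 cyclins, CDK inhibitors, p53 and Myc, 8 were higher and 14 lower (background 30.3% and 29.3%). Myc (0.13 ± 0.34, 95% interval -0.59 to 0.84) and Cdkn1a, the gene of the inhibitor p21 (303 ± 49.2 and 302 ± 62.2 CPM, 95% interval -0.33 to 0.32), were not called. Ccnd1, cyclin D1, was called lower, from 248 ± 94.9 to 90.1 ± 12.2 CPM (-1.46 ± 0.60, edgeR adjusted p = 0.0435, and 0.00865 with the block). Its groups did not overlap and it was lower in 6 of 6 replicate numbers. Without 1 library it lost the call in 9 of 12 fits, at similar sizes (-1.24 and an edgeR adjusted p of 0.0966 without IL4_IL13 replicate 1), and the Control libraries, which enter the estimate of spread, varied widely (SD 285 CPM). The CDK inhibitor gene Cdkn2b rose from 2.62 ± 0.881 to 35.1 ± 4.59 CPM (3.75 ± 0.18), while Cdkn2c and Cdkn2d fell by 2.99 ± 0.19 and 2.27 ± 0.16. Gadd45b, a stress sensor raised by NF-kB, rose from 15.5 ± 1.39 to 73.7 ± 9.35 CPM (2.25 ± 0.09).

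Of 31 survival and death genes 15 were higher and 7 lower, with 7 and 1 beyond 2-fold. The rises were led by the antiapoptotic Bcl2a1 genes given above. Bcl2l11, the gene of the proapoptotic protein BIM, fell from 177 ± 27.97 to 51.6 ± 5.300 CPM (-1.78 ± 0.13), and Bcl2l1, the gene of BCL-XL, fell by 0.94 ± 0.17. Mcl1 was not called (0.12 ± 0.11).

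Genes of redox control rose. Of 29 NRF2 target and antioxidant genes 25 were higher and 1 lower, 16 by more than 2-fold, with a median of 1.21. Slc7a11, the cystine importer, ranged from 11.1 to 18.6 CPM (median 13.2) in IL4_IL13 and from 797 to 1155 CPM (median 924) with TNFa, a rise of 6.12 ± 0.39 (edgeR adjusted p = 1.59e-10), and the quinone reductase gene Nqo1 rose from 13.4 ± 1.34 to 136 ± 14.6 CPM (3.34 ± 0.16). Prdx1, a peroxiredoxin, rose from 718 ± 38.4 to 3876 ± 352 CPM (2.43 ± 0.09). Hmox1, heme oxygenase, was not called (0.39 ± 0.20, edgeR adjusted p = 0.103, and 0.0104 with the block), with IL4_IL13 replicate 1 high at 603 CPM. Sod1 fell by 0.46 ± 0.05.

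Of 15 antimicrobial and oxidase genes 11 were higher and 2 lower, 8 of the 11 by more than 2-fold, led by Acod1 and Nos2. The NADPH oxidase genes Ncf1 and Rac2 fell by 0.52 ± 0.07 and 0.29 ± 0.05, and Lyz2, lysozyme, was not called (0.16 ± 0.13). Of 18 iron and heme genes 11 were higher and 4 lower. Cp, ceruloplasmin, rose from 0.349 ± 0.148 to 7.56 ± 1.75 CPM (4.40 ± 0.31), and the metal importer genes moved apart: Slc39a14 rose by 1.63 ± 0.34 and Slc39a8 fell by 1.67 ± 0.14.

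Genes of mitochondrial energy metabolism rose by small steps. Of 52 genes of oxidative phosphorylation 49 were higher and none lower (44 and 1 under library totals alone), none by more than 2-fold, with a median log2 fold change of 0.52. Their summed level ranged from 5104 to 6097 CPM in IL4_IL13 and from 7882 to 8735 CPM with TNFa. Cox5a and Cyc1, subunits of complexes IV and III, rose from 121 ± 10.4 to 240.2 ± 16.6 CPM and from 103 ± 7.01 to 177 ± 9.35 CPM (0.99 ± 0.09 and 0.78 ± 0.07), and Ndufa4 was not called (-0.06 ± 0.10; -0.26 and called under library totals alone). Of 22 genes of the tricarboxylic acid cycle 18 were higher and 1 lower (14 and 2 under library totals alone). Mdh2, a malate dehydrogenase, rose by 0.92 ± 0.11, Mdh1 was not called (-0.01 ± 0.06; -0.22 and called under library totals alone), and Suclg2, a succinyl-CoA ligase subunit, fell by 2.03 ± 0.15.

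Of 77 mitochondrial ribosomal protein genes 53 were higher and 3 lower, but only 17 and 11 under library totals alone. Mrpl52 rose by 1.81 ± 0.08 and Mrps18b by 1.09 ± 0.15, Mrps6 and Mrps25 fell by 0.35 ± 0.08 and 0.34 ± 0.10, and Mrpl24 was not called (0.07 ± 0.08). Of 77 cytosolic ribosomal protein genes 27 were higher and none lower, with a median of 0.11, and this split turned to 2 higher and 20 lower under library totals alone. Rpl27 rose by 0.50 ± 0.12, Rps29 by 0.53 ± 0.20 (not called without IL4_IL13 replicate 3, edgeR adjusted p = 0.0556, nor under library totals alone, 0.33), and Rplp0 was not called (0.07 ± 0.05, -0.14 and called under library totals alone).

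Of 32 glycolysis and hypoxia genes 10 were higher and 10 lower, close to the background of 30.3% and 29.3%. The split was 15 and 10 with the block, 15 and 12 without the libraries numbered 1, and 9 and 14 under library totals alone. The glucose transporter gene Slc2a1 and the phosphofructokinase gene Pfkl rose by 1.28 ± 0.16 and 1.12 ± 0.11. Slc2a3, a further glucose transporter, and Ankrd37, a hypoxia-induced gene, fell by 1.597 ± 0.18 and 3.15 ± 0.18, Vegfa, the vascular growth factor, by 1.54 ± 0.14, and Pkm was not called (0.14 ± 0.13).

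Lipid genes moved in several ways. Of 30 genes of cholesterol and fatty acid synthesis 13 were higher and 2 lower (10 and 7 under library totals alone). The higher count was 20 without Control replicate 1, a library outside the contrast that enters the estimate of spread. Scd2, a desaturase, rose from 109 ± 10.4 to 214 ± 22.9 CPM (0.98 ± 0.11) and Mvd, of the mevalonate pathway, by 1.41 ± 0.06. Dhcr7 and Insig1 fell by 0.71 ± 0.09 and 0.22 ± 0.07, and Fasn was not called (0.31 ± 0.19). Among 15 cholesterol efflux and LXR genes 4 were higher and 7 lower. Abca1, the transporter that loads cholesterol onto lipoproteins, rose from 88.2 ± 26.1 to 468 ± 33.7 CPM (2.41 ± 0.26) and Nr1h3, LXRa, by 0.91 ± 0.09, while Cyp27a1 and Pltp fell by 1.74 ± 0.38 and 1.55 ± 0.30, and Soat1 was not called (-0.04 ± 0.07; -0.24 and called under library totals alone). Of 25 genes of PPARg and fatty acid oxidation 7 were higher and 10 lower (background 30.3% and 29.3%). Under library totals alone 2 were higher and 14 lower. Fabp4, a fatty acid binding protein raised by PPARg, fell from 25.1 ± 7.77 to 3.46 ± 0.7405 CPM (-2.85 ± 0.21), Angptl4 fell by 1.66 ± 0.20, Acsl1, an acyl-CoA synthetase, rose from 48.5 ± 5.66 to 228 ± 30.8 CPM (2.23 ± 0.10), Ppargc1b rose by 1.09 ± 0.09, and Cd36 was not called (0.18 ± 0.19).

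The prostaglandin and leukotriene list held 6 higher and 8 lower genes of 15. Besides Hpgd, the prostaglandin D synthase gene Hpgds fell from 104 ± 13.1 to 10.3 ± 1.51 CPM (-3.34 ± 0.12). Pla2g7, platelet-activating factor acetylhydrolase, rose from 14.3 ± 4.75 to 485 ± 53.1 CPM (5.09 ± 0.24) and Ltc4s, leukotriene C4 synthase, from 4.23 ± 0.368 to 75.2 ± 5.304 CPM (4.15 ± 0.07). Pla2g4a was not called (0.05 ± 0.38).

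Most uptake receptors fell. Of 18 scavenger and apoptotic cell receptors and their bridging proteins 13 were lower and 4 higher, 9 of the 13 by more than 2-fold (background 6.63%), with a median of -1.29. Cd163, the receptor for haptoglobin-hemoglobin complexes, fell from 6.24 ± 1.83 to 0.524 ± 0.203 CPM (-3.55 ± 0.24) and Cd5l, a secreted scavenger protein, from 12.4 ± 2.29 to 1.18 ± 0.236 CPM (-3.38 ± 0.22). Mrc1, Lrp1 and C1qb fell as given above. Against this direction, Olr1, the lectin-like receptor for oxidized LDL, rose from 2.98 ± 0.578 to 127 ± 23.3 CPM (5.41 ± 0.18) and Msr1, scavenger receptor A, from 240.1 ± 59.7 to 827 ± 58.5 CPM (1.78 ± 0.20).

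Of 33 Toll-like, lectin and Fc receptors and their adaptors 17 were higher and 11 lower, 5 and 4 beyond 2-fold. Under library totals alone 12 were higher and 12 lower. Fcgr1, the high-affinity IgG receptor, ranged from 17.8 to 25.1 CPM (median 21.8) in IL4_IL13 and from 0.616 to 1.95 CPM (median 0.871) with TNFa (-4.43 ± 0.20, edgeR adjusted p = 1.37e-12), and Fcgr3 fell from 397 ± 48.5 to 71.1 ± 13.1 CPM (-2.48 ± 0.16). The C-type lectin genes Clec4e, whose product Mincle binds mycobacterial glycolipid, and Clec4n, Dectin-2, rose from 7.28 ± 5.88 to 322 ± 116 CPM and from 1.75 ± 0.591 to 211 ± 11.6 CPM (5.44 ± 0.41 and 6.90 ± 0.27; Clec4e 6.03 without IL4_IL13 replicate 1). Their neighbour in family Clec4a3 was not called (0.09 ± 0.29).

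Among 13 complement genes 6 were higher and 6 lower. C3 and Cfp, properdin, rose, the latter from 201 ± 35.2 to 694 ± 59.8 CPM (1.79 ± 0.10), while the anaphylatoxin receptor genes C5ar1 and C3ar1 fell from 204 ± 14.1 to 39.4 ± 4.93 CPM and from 887 ± 56.6 to 177 ± 9.07 CPM (-2.37 ± 0.09 and -2.33 ± 0.08). Cd59a was not called (-0.46 ± 0.20; edgeR adjusted p = 0.0204 with the block; -0.67 and called under library totals alone). Of 13 chemoattractant receptors 6 were higher and 6 lower. Cmklr1, the chemerin receptor, and Cxcr2 rose by 2.38 ± 0.28 and 1.605 ± 0.17, and Ccr3 was not called (-0.19 ± 0.20). Cxcr2 is also a neutrophil marker. The 11 markers of that cell type summed to between 22.3 and 60.0 CPM in IL4_IL13 and between 109 and 136 CPM with TNFa, 8 of them stayed below 1 CPM, and the defining Elane, Ly6g and Retnlg were at 0.

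Of 27 cytokine receptor genes 16 were higher and 8 lower. Genes of the IL-18 system changed in opposite directions: Il18bp, which binds and blocks IL-18, rose from 2.93 ± 0.399 to 14.97 ± 2.29 CPM (2.35 ± 0.12), and Il18rap, a chain of its receptor, fell from 39.6 ± 5.63 to 12.7 ± 1.99 CPM (-1.64 ± 0.11). Il21r rose by 1.97 ± 0.08 and Lifr fell by 3.28 ± 0.17. Csf1r, the receptor for the M-CSF in every culture, was not called (3427 ± 221 and 3812 ± 62.1 CPM in IL4_IL13 and with TNFa, 0.15 ± 0.08), although its libraries did not overlap. Of 25 purinergic and other G protein-coupled receptors 11 were higher and 8 lower (9 and 12 under library totals alone). Gpr84, a receptor for medium-chain fatty acids, rose from 1.73 ± 0.674 to 124 ± 13.4 CPM (6.12 ± 0.34) and Adora2a, an adenosine receptor, from 0.304 ± 0.165 to 9.37 ± 0.829 CPM (4.88 ± 0.26). S1pr1, a receptor for sphingosine 1-phosphate, fell by 2.92 ± 0.10, and P2ry6 was not called (-0.11 ± 0.08; edgeR adjusted p = 0.0214 with the block; -0.32 and called under library totals alone).

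In the Siglec, CD300 and MS4A families 7 of 21 tested genes were higher and 11 lower. Cd300lg and Cd300lf had the largest falls, as given above. Siglecf and Ms4a7 rose by 1.301 ± 0.09 and 1.34 ± 0.24, and Ms4a6d was not called (-0.18 ± 0.08; -0.39 and called under library totals alone).

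Of 23 adhesion molecules and integrins 10 were higher and 10 lower. Vcam1, the ligand of the integrin a4b1, rose from 0.8801 ± 0.162 to 30.4 ± 2.86 CPM (5.10 ± 0.22), and Itgb8, an integrin chain that activates TGF-beta, from 5.49 ± 0.835 to 101 ± 12.2 CPM (4.21 ± 0.13). Itga6 and Itgb7 fell by 2.91 ± 0.19 and 2.80 ± 0.17, and Itgb1 was not called (-0.09 ± 0.08; -0.30 and called under library totals alone). In the list of matrix proteins, proteases and growth factors, 11 of 31 were higher and 11 lower (background 30.3% and 29.3%). Mmp14, the membrane-bound metalloproteinase that activates others, rose from 5.28 ± 3.77 to 151 ± 10.9 CPM (4.82 ± 0.33), next to Mmp9, while the collagenase gene Mmp13 fell from 42.7 ± 5.76 to 9.55 ± 3.59 CPM (-2.16 ± 0.23). Tgfbi was not called (0.10 ± 0.16).

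Of 17 genes of fusion and osteoclasts 6 were higher and 9 lower. Besides Mmp9, Car2, carbonic anhydrase 2 of the osteoclast, rose from 0.675 ± 0.3000 to 12.7 ± 1.88 CPM (4.20 ± 0.21). Cdh1, the gene of E-cadherin, which IL-4 raises in fusing macrophages, fell from 39.1 ± 25.3 to 8.17 ± 1.48 CPM (-2.26 ± 0.36), as did Itgb3, by 1.12 ± 0.11, and Cd47 was not called (0.04 ± 0.07; -0.17 and called under library totals alone). Of 47 lysosomal genes 16 were higher and 19 lower (background 30.3% and 29.3%), or 12 and 28 under library totals alone. They were spread on both sides, with a median of 0.00. The cysteine protease genes showed this: Ctsk and Ctsz rose by 1.75 ± 0.19 and 1.63 ± 0.07, Ctsl fell by 1.77 ± 0.07, and Ctsb, among the most abundant genes, was not called (-0.18 ± 0.08; edgeR adjusted p = 0.00925 with the block; -0.38 and called under library totals alone).

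Macrophage identity genes changed in both directions. Of 28 lineage factors and identity genes 14 were lower and 11 higher, 7 and 3 beyond 2-fold. Maf, the gene of c-MAF, ranged from 89.1 to 115 CPM (median 101) in IL4_IL13 and from 17.3 to 21.8 CPM (median 17.9) with TNFa (-2.45 ± 0.11), and its groups did not overlap. Tfec, a factor related to MITF, and Bhlhe41 rose by 1.51 ± 0.06 and 1.41 ± 0.17. Of 30 early response factors and phosphatases 11 were higher and 12 lower. The bZIP factor genes Maff and Jund rose by 3.01 ± 0.26 and 1.32 ± 0.13, Hes1, a target of Notch, and Dusp6, a phosphatase that switches off ERK, fell by 4.96 ± 0.42 and 1.28 ± 0.20, and Atf3 was not called (0.04 ± 0.11).

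Of 24 genes of ER stress and the amino acid response 7 were higher and 7 lower, close to the background of 30.3% and 29.3%. Under library totals alone 4 were higher and 11 lower. Phgdh and Psat1, the first enzymes of serine synthesis, fell from 45.5 ± 12.9 to 2.45 ± 0.659 CPM and from 84.3 ± 21.7 to 29.7 ± 2.71 CPM (-4.21 ± 0.40 and -1.51 ± 0.34). Herpud1 and Slc3a2 rose by 0.98 ± 0.06 and 0.83 ± 0.13, and Edem1 was not called (-0.10 ± 0.06; -0.31 and called under library totals alone).

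**Figure D5:**
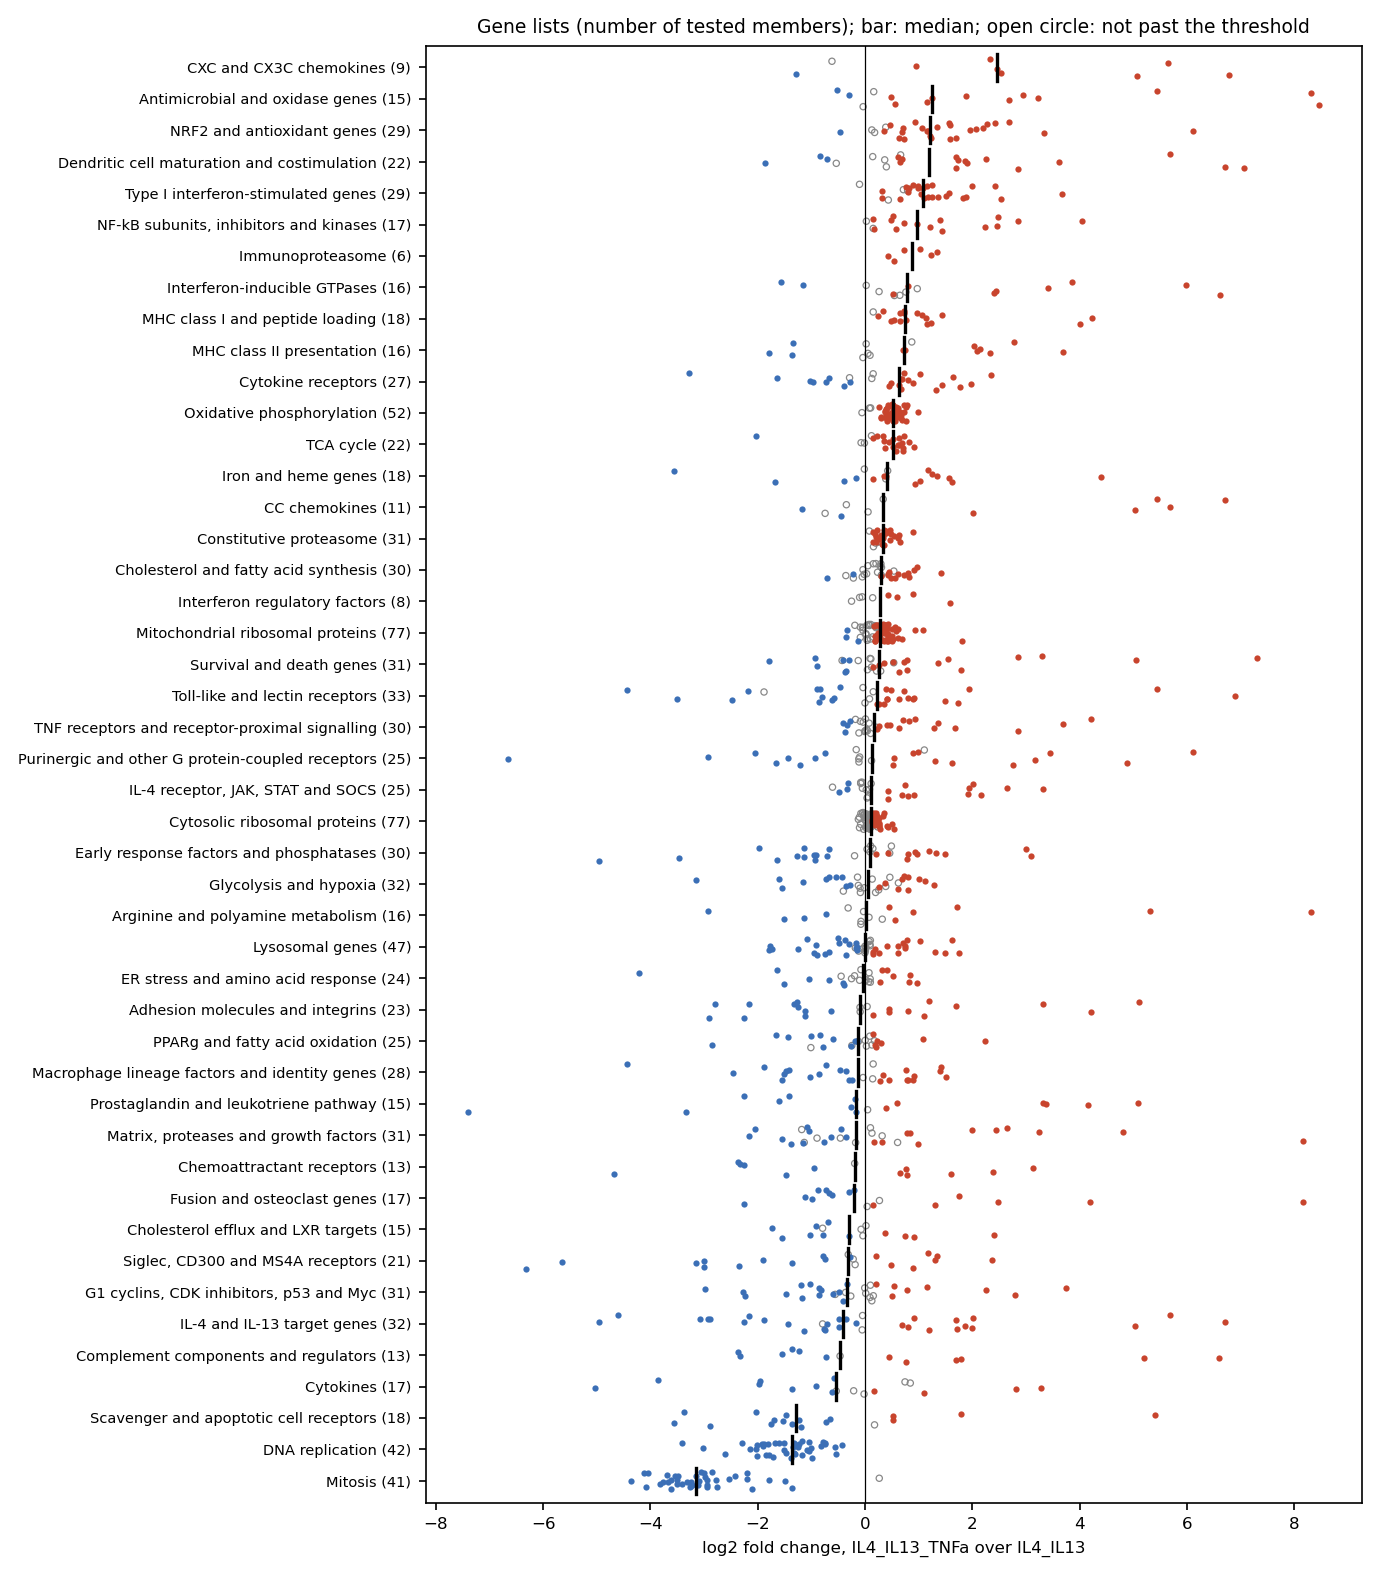
Log2 fold change with TNFa of each tested member (points) of 46 gene lists, ordered by their median (black bar), with the number of tested members in brackets. Red and blue points passed the threshold and open circles did not. The Mitosis and DNA replication lists lie wholly or almost wholly to the left, with medians of -3.15 and -1.36, the oxidative phosphorylation and proteasome lists lie in a narrow band to the right, and the IL-4 and IL-13 target genes extend to both sides.

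Not all abundant genes were called. Of 5321 genes not called, 1711 had a 95% interval of their change wholly within 1.2-fold either way. Both elongation factor genes Eef1a1 and Eef2, among the most abundant of the 5321, had such intervals, at log2 fold changes of 0.03 ± 0.05 and 0.08 ± 0.05 (-0.18 and -0.13 under library totals alone, where both passed the threshold). Of the other 4 most abundant uncalled genes, Ctsb, Csf1r, Lyz2 and Cd36, the intervals were wider: -0.34 to -0.01, -0.02 to 0.33, -0.12 to 0.44 and -0.22 to 0.58. In the fit of the 12 libraries alone Csf1r and Ctsb were called (edgeR adjusted p = 0.015 and 0.0305). For uncalled genes, missing the threshold does not show that levels were equal.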

How the data were processed

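Poly(A) RNA of mouse bone marrow derived macrophages was sequenced in 18 libraries made with a directional kit. The deposited table holds whole-number counts per gene, and the submitters' processing notes list, with build GRCm38 (mm10) and without a role for each, the counting tools featureCounts 1.5.1 and RSEM 1.3.0, the aligner STAR in versions 2.5.2b and 2.5.2, FastQC 0.11.5 and bcl2fastq 2.20.0.422. For counting, no strand setting or annotation release is given in the sources used here. Overlapping, antisense and near-identical genes are therefore uncertain. All 48794 rows entered the library sizes. Positions come from GENCODE M21 and promoters from RefSeq on GRCm38.p6.

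Counts of all 18 libraries were filtered with filterByExpr (minimum count 10), scaled by TMM and fitted with 3 group means in edgeR 4.0.16 (robust glmQLFit). Genes were called by glmQLFTest, or by glmTreat against a 2-fold change, at a Benjamini-Hochberg adjusted p of at most 0.05 over all 13177 genes tested. The printed standard error is the log2 fold change divided by the square root of F. The script was tested on simulated counts. DESeq2 1.42.0, limma voom (limma 3.58.1), other scalings, filters and sets of libraries were alternatives. Gene lists (46 pathway and 11 cell type lists) were described by counts and medians, with no set test. The lists and the rule for named genes were chosen with earlier results of these data known. The rule took the 10 largest rises and falls among called genes that reached 5 CPM and did not overlap, the 8 largest gains and losses in CPM, for each list up to 2 called members per direction and the most abundant member not called, genes of the TNFa and IL-4 pathways, and the 6 most abundant genes not called. In all it named 239 genes, some of which are not reported here.

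Libraries with the same number deviated together from their group means in all 6 numbers (correlations of 0.145 to 0.51 across genes, against at most 0.119 for other numbers), so the numbers were taken to pair the libraries, a pairing that comes from the data and not from a stated batch. The second principal component, with 5.68% of the variance, followed these numbers. No 2 libraries agreed within sampling noise. Totals per library limit the precision of genes with few counts, and intervals of shares cover counting error only.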

Additional observations from a re-analysis of the deposited data

Results flagged for a closer look

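In 20 of 478 groups of 6 libraries (4.18%), taken over the 239 named genes, 1 library lay apart from the rest by more than the Dixon critical value of 0.625. Chance alone flags about 1 group in 20. Of these, 8 were in IL4_IL13 replicate 1, which had the highest levels of its group for Cxcl3 (6.88 CPM, median of the other 5 libraries 0.0616), Hmox1 (603 CPM), Slc3a2 (326 CPM), Socs3 (4.76 CPM) and Tnf (6.39 CPM), and the lowest for Hpgd (72.99 CPM), Rela (99.3 CPM) and Relb (11.4 CPM). For 5 of the 8 this put the library on the side of the TNFa group, but for Rela and Relb on the other side, and Hmox1 was not called between the groups.

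IL4_IL13 replicate 4 was lowest for Ctsl (673 CPM) and Mmp13 (31.9 CPM), and IL4_IL13 replicate 6 was highest for Cp (0.647 CPM) and Psme2 (53.6 CPM). With TNFa, replicate 1 was highest for Bhlhe41 (97.7 CPM) and Soat1 (521 CPM) and lowest for Herpud1 (87.9 CPM). Replicate 2 was highest for H2-Q7 (30.3 CPM) and Hes1 (0.569 CPM), replicate 4 was lowest for Ctsd (1030 CPM) and Ctsl (190 CPM), and replicate 6 was lowest for Tab2 (139 CPM).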

How the results depend on the processing

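The number of genes called stayed within 1.5 times of 7856 under every alternative run: 7930 by DESeq2, 7784 by limma voom, 7376 without a filter, 6735 with a filter of 5 CPM in 6 libraries, 8182 from the 12 libraries alone and 8727 without Control replicate 1. Library totals alone gave 2313 higher and 6089 lower genes, in place of 3999 and 3857. Leaving out each of the 12 libraries in turn gave 7517 to 7794 calls (3807 to 3961 higher, 3710 to 3862 lower) and 1443 to 1507 genes beyond 2-fold. With the replicate number as a block, 8516 genes were called and 1606 beyond 2-fold. The block brought 11 named genes past the threshold, each given with its blocked value above, and changed no other call of a named gene. The paired sign-flip test of the summed stromal markers gave p = 0.0625 (exact permutation).

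Of 239 named genes 44 changed their call or direction under at least 1 alternative, and 6 of these lost a call (Ccl7, Ccnd1, Cd83, Ighm, Rps29 and Tnfrsf1b). Without Control replicate 1, 15 uncalled named genes passed the threshold, Canx, Ciita, Fasn, Ikbkg, Jak1, Pkm and Pttg1 among them. Under library totals alone 5 uncalled genes turned from slightly higher to lower: Cd47 (-0.17), Eef1a1 (-0.18), Eef2 (-0.13), Rplp0 (-0.14) and Stat6 (-0.17). Among list counts, the filter of 5 CPM left 4 in place of 8 lower cytokine genes and 1 in place of 3 lower MHC class II genes, since fewer genes were tested. Without a filter 4 in place of 7 ER stress genes were lower and 2 in place of 4 iron genes. Without Control replicate 1, 7 in place of 4 TNF receptor pathway genes were lower. In the 250 bases before the start alone, TTTGAA lay in 18.6% of genes lower by more than 2-fold, and genes not called held kB, GAANNGAAA and TTTGAA matches in 4.52%, 6.42% and 11.99%. The fits without the libraries numbered 1 (8608 calls) and of the 12 libraries with the block (8865 calls) were chosen after seeing the data.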
